A study of Danio rerio with 6 samples.

Results

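The transcriptome of unirradiated zebrafish larvae at 120 hpf was described from the 3 control pools (0 Gy) of a radiation study. Members were the array targets with a RefSeq mRNA identifier (NM_) and a current zebrafish gene symbol, and 2663 of 37157 targets met that rule, carrying 2650 distinct symbols. A further 392 of the 3055 targets with such an identifier matched no symbol and were not members, and 193 members carry a placeholder name. The rule used identifiers and not measured values. Wild-type AB embryos were kept in groups of 50, mock irradiated at 26 hpf and pooled as whole larvae at 120 hpf, and each pool of 50 came from a separate clutch. RNA of each pool was hybridised to 1 one-colour NimbleGen zebrafish array. The irradiated pools of the study (5 Gy, 3 pools) were not compared here.

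A larva of this age swims and hunts by sight, is leaving its yolk behind and has a working heart, gut, liver and pancreas. Much of its body mass is fast trunk muscle, and its eyes are large relative to the body. The lens is built from crystallins packed at high concentration, the acinar cells of the pancreas make digestive zymogens, and the ovary, testis and adaptive immune system have yet to mature. RNA of a whole larva is a mixture over all tissues, so that a low level in a bulk pool cannot separate few cells of a type from little RNA per cell.

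A level is the log2 intensity of a target after median polish of its probes over the 3 control arrays, and a signal percentile is the share of all 37157 targets at or below its mean level. Intensities were quantile normalised, so equal distributions across pools were imposed and the levels give the order of array signal within a pool, not amounts of RNA. Probes of fixed length were used and levels were not divided by transcript length. Probes of 1 target differ in brightness, with a median SD over the probes of a member of 1.27. The median standard error of the plain mean of those probes was 0.37, used here as a guide to the error of a polished level. That error differed between members, and among the 25 brightest it ran from 0.05 for prss59.1 to 0.97 for rpl6. An error of this kind applies to every comparison of level between genes below, and targets of 1 symbol could differ by more, as given below. Wherever 3 values are given in sequence they are those of control pools 1, 2 and 3. A level said to be the same in each pool is the polished level, and its probes could still differ, as given below. With 1 group of 3 pools there was no comparison between groups and no test was run.

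Levels of the members covered most of the scale of the array. The median member had a level of 8.84 against 8.45 for all targets, and its signal percentile was 57.1. The middle 50% of members lay between 7.57 and 10.00. Of the 2663 members, 280 (10.5%) were among the brightest 10% of all targets, 37 (1.39%) among the brightest 1% and 403 (15.1%) among the dimmest 25%. Membership of the brightest 10% moved with the pool, since 216 members belonged to it in each of the 3 pools and 335 in at least 1. In all, 1368 members were above the median target in every pool and 920 were below it in every pool.

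Control pool 3 stood apart from the other pools. Across members the levels of control pools 1 and 2 correlated at r = 0.988, while the correlations with control pool 3 were 0.921 and 0.926, for genes of the same arrays that are not independent of each other. The range of a member, its highest minus its lowest pool, had a median of 0.41 log2 units, and the median SD was 0.22. A range of at least 1, which is a 2-fold difference in intensity between the lowest and the highest pool, was found in 504 members (18.9%), beside 22.7% of all targets. Of these 504 members, control pool 3 was farther from both other pools than they were from each other in 453. The same held for 7238 of the 8425 targets with such a range over the array. Among the 504 members control pool 3 was the highest pool in 346 and the lowest in 145. Over all 8425 targets with such a range it was the highest in 3994 and the lowest in 4143, so the excess of high values was not seen over the whole array. Members had later last probes than all targets, as given below. The part of this in the excess among members was not tested. A difference of at least 1 between control pools 1 and 2 was found in only 29 members (1.09%), beside 1.75% of all targets. When the levels were fitted without control pool 3, 44 members (1.65%) had a range of at least 1, beside 2.76% of all targets. A range of at least 2 was found in 98 members, beside 4.79% of all targets.

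The range depended on level. Members up to the 10th percentile had a range of at least 1 in 2.97% of cases, those between the 30th and the 40th percentile in 81 of 279 (29.0%), and those above the 90th percentile in 22 of 280 (7.86%). Over all targets the shares in the same bins were 5.09%, 34.3% and 9.18%. Dim targets lie near the floor of the array and 15 members had a probe value over 60000, near the top of the scale, and the part of either limit in these shares was not tested. The range also depended on how probes were combined. By the plain mean of the probes the median range was 0.62 and 662 members had a range of at least 1, beside 29.8% of all targets.

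**Figure D1:**
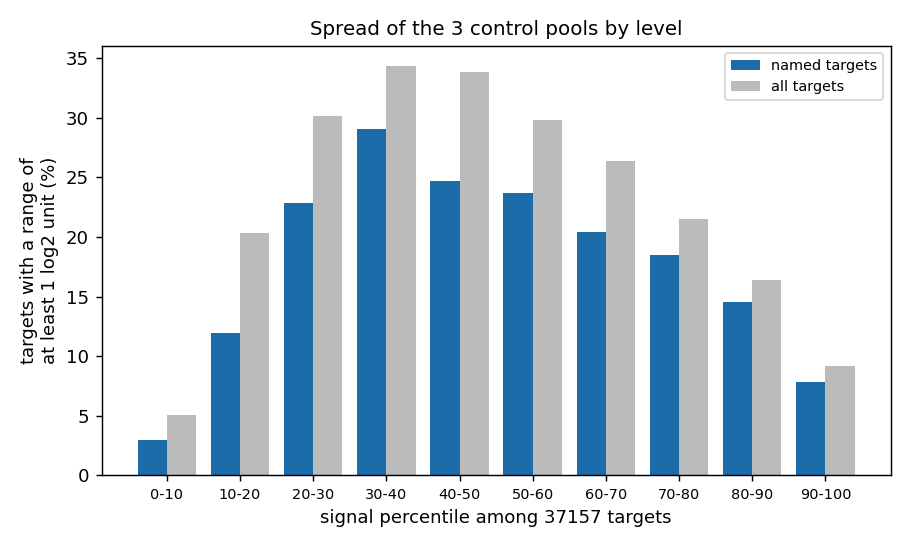
Share of targets (percent, vertical axis) whose 3 control pools differed by at least 1 log2 unit, in 10 bins of signal percentile among all targets (horizontal axis), for the named targets and for all targets. The share was 2.97% of named targets up to the 10th percentile, 29.0% between the 30th and the 40th percentile and 7.86% above the 90th percentile. For all targets it was 5.09%, 34.3% and 9.18% in the same bins.

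The departure of control pool 3 followed the position of the probe along its target, read here from the number that ends each probe identifier. In control pools 1 and 2 the mean level of members' probes rose from 8.29 and 8.23 at the last probe to 9.14 and 9.13 at 300 to 600 positions from it, and was lower again, at 7.82 and 7.95, beyond 2500 positions. In control pool 3 the same means were 8.10, 9.16 and 8.97. Relative to the mean of the same probe over the 3 pools, control pool 3 had a mean deviation of -0.11 at the last probe and of 0.72 beyond 2500 positions. Control pool 3 was the highest pool for 1036 members (38.9%), beside 31.5% of all targets. The median last probe lay at position 1509 for members and 901 for all targets. Among the 254 members whose last probe lay beyond position 3000, control pool 3 was the highest for 148 (58.3%). Over the array this held for 1209 of 2273 such targets (53.2%). With the last probe between 1500 and 2000 the shares of members and all targets were 34.7% and 34.5%, and up to position 500 they were 43.0% and 23.6%.

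The ends of the targets were also compared with equal numbers of probes. For the 2562 members with at least 8 probes, the mean of the first 4 probes gave a range of at least 1 in 1000 (39.0%), beside 40.0% of all targets, and the mean of the last 4 probes in 820, beside 36.7% of all targets. Control pool 3 was highest in 1435 of these members by the first 4 probes and in 842 by the last 4. This was not counted over all targets, so whether the difference between the ends is particular to members was not tested. Over all targets the mean deviation of control pool 3 was -0.122 at the last probe and 0.626 beyond 2500 positions. The correlation of control pool 1 with control pool 3 was 0.843 over the first 4 probes and 0.909 over the last 4, whereas that of control pools 1 and 2 was 0.960 and 0.961. With only the probes within 600 positions of the last one, 544 of 2217 members had a range of at least 1, beside 25.5% of all targets measured that way. Fewer probes enter these values, so the counts cannot be set against the 504 found with all probes. The RNA quality of the pools was not measured in the values used here, and the part of clutch, RNA and labelling in the departure of control pool 3 was not tested.

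**Figure D2:**
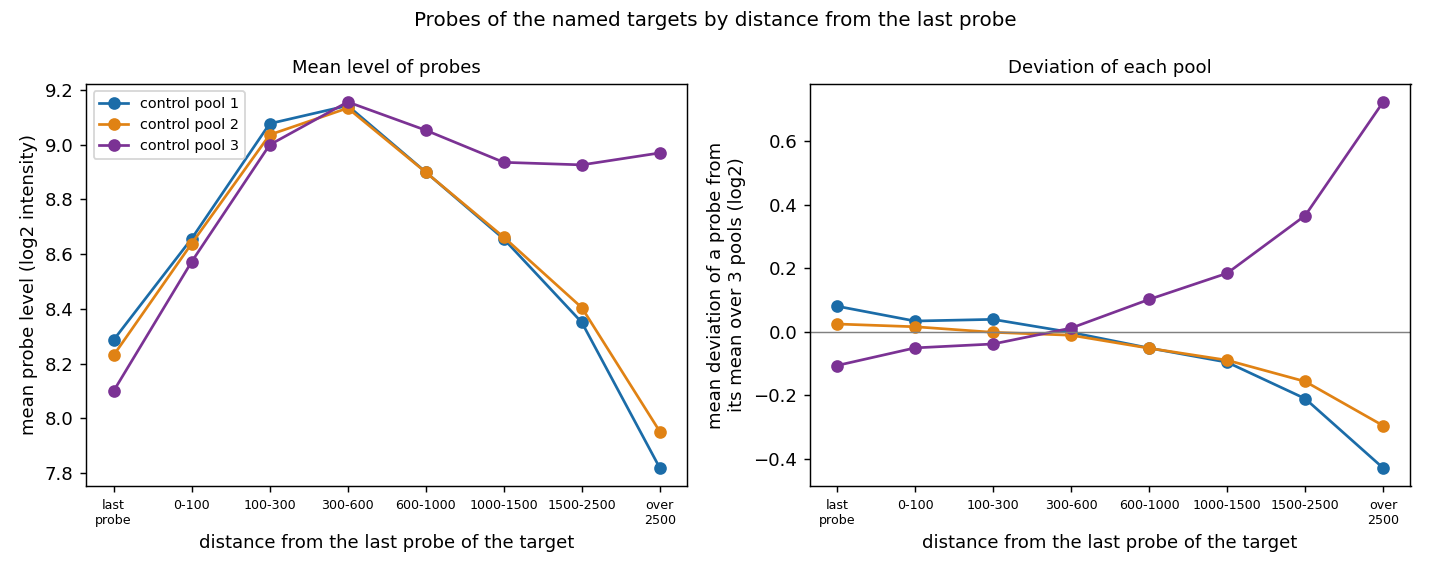
Left, mean level of the probes of the named targets (log2 intensity) by their distance in positions from the last probe of the target, for each control pool. Right, mean deviation of the same probes in each pool from their mean over the 3 pools (log2 units). All 3 pools rise from the last probe to 300 to 600 positions, and beyond 2500 positions control pools 1 and 2 lie at 7.82 and 7.95 and control pool 3 at 8.97. The bins at larger distances hold probes of longer targets only.

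Among members, the top of the signal scale was held mostly by genes of protein synthesis, digestion, lens, muscle and energy metabolism. All of the 25 brightest members had a level of at least 14.58, and their ranges had a median of 0.10 and reached 0.63 in crygm2d2. Beside the genes of the lists below they included rack1, a scaffold of the small ribosomal subunit, at 15.33, 15.23 and 15.56, and tpt1, which encodes the translationally controlled tumour protein, at 15.06, 15.06 and 15.13. Sec61b, a subunit of the translocon of the endoplasmic reticulum, stood at 14.64, 14.71 and 14.60, and naca, which guards nascent polypeptides, at 14.72, 14.72 and 14.64. The rest of the 25 were the ribosomal protein genes rps6 and rpl6 and the crystallin genes cryba1l1, cryba2a, crygm2d7, crygm2d5 and crygm2d13, with means from 15.35 ± 0.10 down to 14.70 ± 0.12 (SD, n = 3). At least 1 probe value over 60000 was present in 12 of the 25, so their order among themselves is not resolved.

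**Figure D3:**
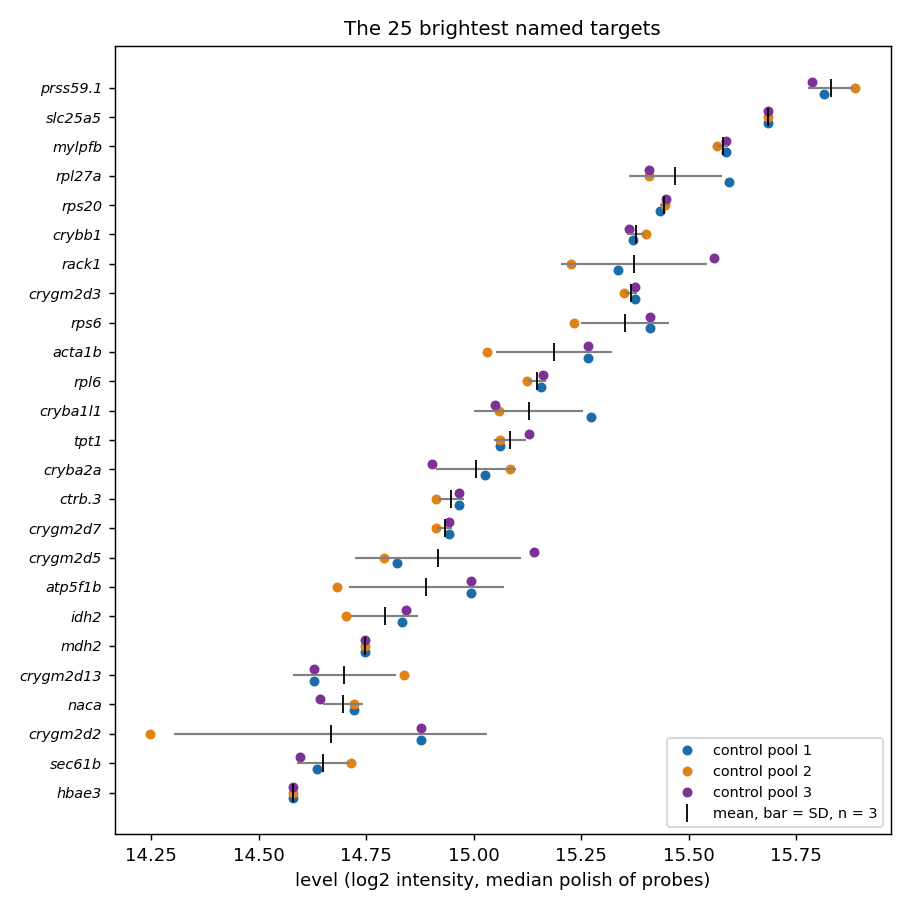
Level (log2 intensity, horizontal axis) of the 25 brightest named targets in control pools 1, 2 and 3 (points), with the mean and SD of the 3 pools (tick and bar). The means run from 15.83 for prss59.1 to 14.58 for hbae3, and crygm2d2 has the widest spread, with control pool 2 at 14.25.

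To describe tissues and functions, 38 gene lists were matched to members by symbol, and 735 members fell in at least 1 of them. The median member lay above the median target in 29 lists. The median of all members was itself at percentile 57.1, so a list median near that value does not set a list apart. Counts of list members above the median target are to be read in the same way. For the ranges of the lists the values over all targets, a median of 0.47 and a share of 22.7% at 1 or more, are the ones to read them against. For bright lists those of all targets above the 90th percentile, 0.29 and 9.18%, are nearer in level. The order of the medians ran from the cytosolic ribosome at the top to the olfactory, taste and pheromone receptors at the bottom. Neighbouring lists in that order overlapped in their members' percentiles. The list of 3 reference genes for quantitative PCR lay in the upper middle, with polr2d, a subunit of RNA polymerase II, at 10.48, 10.62 and 10.62, the ubiquitin-conjugating enzyme ube2a at 9.89, 10.37 and 9.71, and the elongation factor eef1a1b at 9.77 in each pool.

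**Figure D4:**
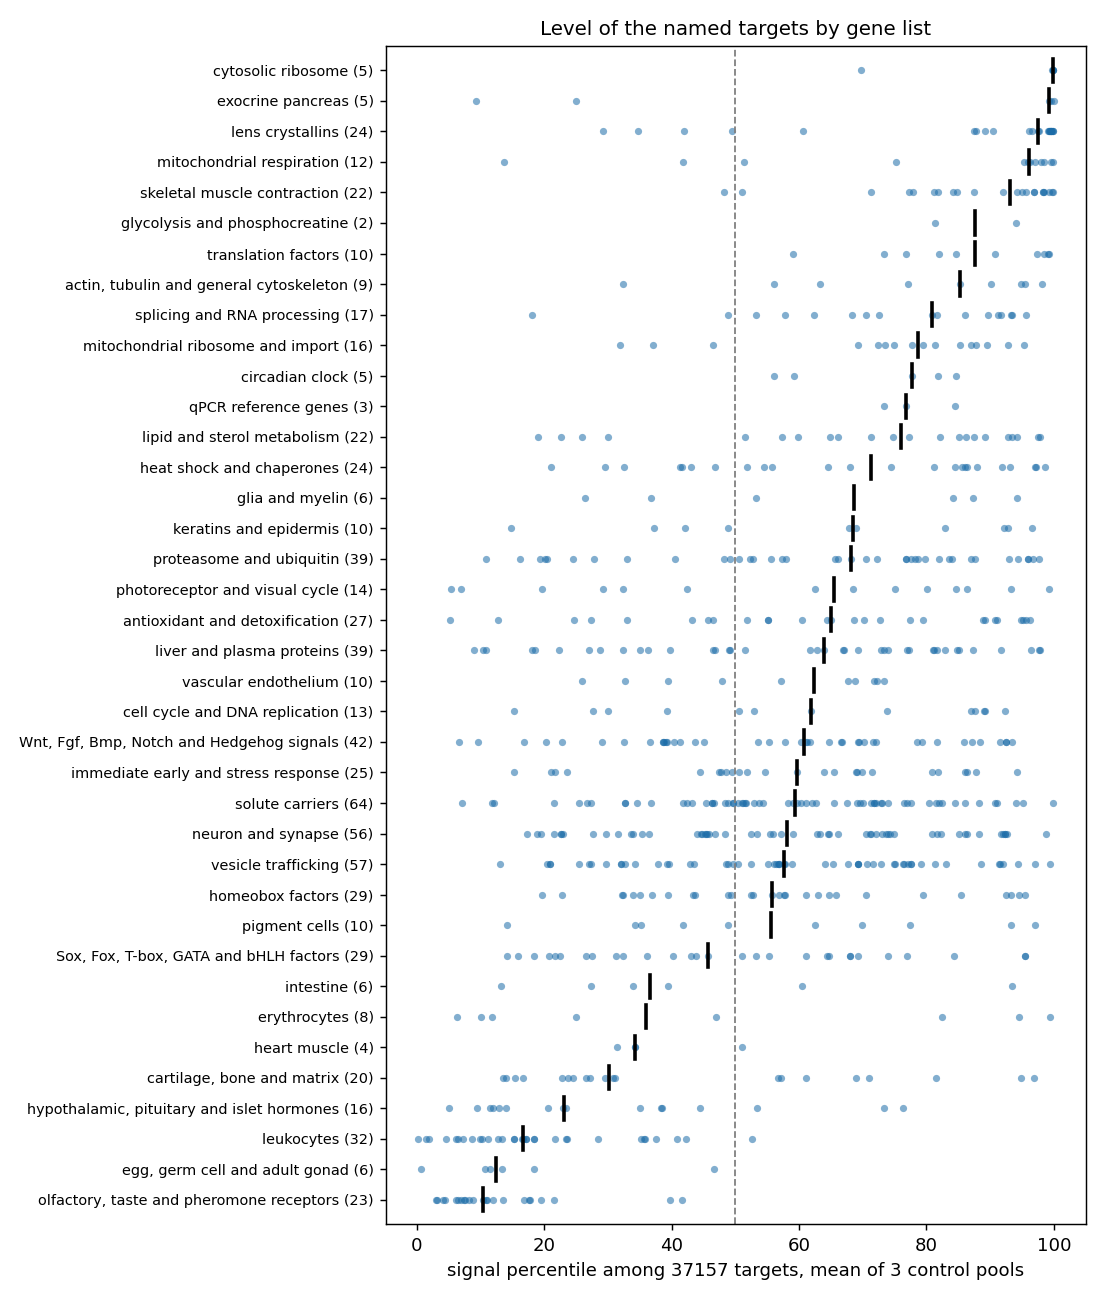
Signal percentile among all 37157 targets (horizontal axis, mean of the 3 control pools) of each named target (points) in 38 gene lists (number of members in parentheses), with the median of each list (black tick) and the median of all targets (dashed line). Ribosomal, pancreatic, lens and mitochondrial lists lie at the right and the lists of leukocytes, gonad and chemosensory receptors at the left, and most lists span much of the scale.

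By their medians the lists of the cytosolic ribosome and the translation factors were bright in every pool. Of the 5 ribosomal protein genes among the members, 4 were among the 25 brightest members. Rpl27a of the large subunit stood at 15.59, 15.41 and 15.41 and rps20 of the small subunit at 15.43, 15.44 and 15.45, whereas rpl37 was lower at 9.69, 9.51 and 9.47. By mean level all 10 translation factor members were above the median target. The elongation factor eef1a1l2 stood at 14.04, 14.10 and 14.10, above its relative eef1a1b, and the initiation factor 3 subunits eif3ea and eif3k at 14.24, 14.42 and 14.24 and at 13.49, 13.70 and 13.60. The largest range among them was that of eif4g1a, a scaffold of the cap-binding complex, at 10.74, 10.80 and 12.18, with control pool 3 alone high. Eif4ea stood at 9.25, 9.27 and 8.33, and in control pool 3 it was below the median target. The 17 members of splicing and RNA processing had a median percentile of 81.0, and 5 of them had a range of at least 1, among them the splicing regulator mbnl1 at 7.85, 8.27 and 9.77.

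Lens crystallins and other lens fibre genes were bright and close between pools. Of 24 members, 16 were among the brightest 10% of all targets, 8 were among the 25 brightest members, and none had a range of at least 1. Their median range was 0.24, beside 0.29 for all targets above the 90th percentile. The beta crystallin crybb1 stood at 15.38 ± 0.02 (SD, n = 3) and the gamma crystallin crygm2d3 at 15.37 ± 0.01 (SD, n = 3). Mipa, the aquaporin of lens fibres, stood at 12.33, 12.40 and 12.19, and the fibre membrane protein gene lim2.3 at 12.54, 12.63 and 12.34. The family was not bright throughout, since crygm2b, crygmxl1 and the small heat shock protein gene cryabb lay between the 29th and the 42nd percentile, with cryabb at 7.26, 7.38 and 8.03. The gamma M2 crystallins are close copies of each other, and their probes could share signal.

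Skeletal muscle genes were bright, and 6 of them differed by at least 1 between pools. Of 22 members, 21 were above the median target and 12 in the brightest 10%. The fast myosin light chain gene mylpfb stood at 15.58 ± 0.01 (SD, n = 3), the skeletal actin gene acta1b at 15.19 ± 0.13 (SD, n = 3), and the tropomyosin gene tpm2 at 14.32, 14.34 and 14.32. The ranges of these 3 filament genes were at most 0.23. The calcium-storing casq1b stood at 12.65 in each pool, and the junctophilin jph2, which couples the membranes of the triad, at 12.58, 12.58 and 12.69. In all 6 genes with a range of at least 1 the departing pool was control pool 3. It was low for casq1a (12.33, 12.94 and 11.27), mybpc2b (11.03, 11.04 and 9.72), myoz2b (10.21, 10.49 and 9.48) and tnni1b (8.78, 8.96 and 7.77), and high for srl (9.84, 9.84 and 11.35) and tnni1c (9.54, 9.97 and 10.57). Srl encodes sarcalumenin of the sarcoplasmic reticulum, and mybpc2b encodes the fast form of myosin-binding protein C.

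The heart list was small and dim beside the trunk muscle list. Its 4 members included myl7, the cardiac myosin light chain, at 7.08, 7.03 and 8.49, and the atrial myosin heavy chain myh6 at 7.65, 7.75 and 6.64. Control pool 3 was high for the first and low for the second. Over the probes within 600 positions of the last one the range of myl7 was 0.21, beside 1.46 over all its probes. Myh6 had fewer than 3 such probes. The cardiac sodium channel gene scn5lab was at 7.46, 7.52 and 7.60. The heart list shares tnni1b with the skeletal muscle list, and its median percentile was 34.3.

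Mitochondrial energy genes were mostly bright. Slc25a5, the ADP/ATP carrier of the inner membrane, was among the 25 brightest members at 15.68 in each pool, with 11 of its probe values over 60000. The ATP synthase subunit atp5f1b stood at 14.99, 14.68 and 14.99 and the membrane subunit atp5mc1 at 13.53, 13.46 and 13.55. Of the 12 respiration members, 8 were in the brightest 10%, whereas sdhda of complex II lay at 7.97 and ndufs8b of complex I at 6.18, each the same in every pool. Outside the list, the matrix dehydrogenase genes mdh2 and idh2 stood at 14.75 in each pool and at 14.83, 14.70 and 14.84. The 16 mitochondrial ribosome and import members had a median percentile of 78.6 and the low median range of 0.15. Only mrps27 had a range of at least 1, at 2.13 over all its probes. Over the probes within 600 positions of the last one its range was 0.72. Mrps15 followed over all probes at 0.99.

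Of the 5 exocrine pancreas members, 3 digestive enzyme genes were among the brightest 10% of all targets. The trypsin-like protease gene prss59.1 was among the 25 brightest members at 15.83 ± 0.05 (SD, n = 3), the chymotrypsinogen gene ctrb.3 stood at 14.95 ± 0.03 (SD, n = 3) and the amylase gene amy2al2 at 14.53, 14.54 and 14.53. By the mean of its probes ctrb.3 had a range of 0.46, beside 0.10 for prss59.1 and 0.13 for amy2al2. The other two members of the list, prss60.1 and c6ast1, were dim at 6.91, 6.98 and 6.95 and at 5.84, 5.98 and 5.84. In the intestine list anpepb.1, an aminopeptidase of the brush border, stood at 11.80, 11.57 and 11.65, and the gut regulators cdx1a and cdx1b were below the median target at 7.51 in each pool and at 7.70, 7.70 and 8.12. Median percentile was 99.3 for the pancreas list and 36.6 for the intestine list.

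Liver and plasma protein genes spanned the scale. Of 39 members, 23 were above the median target, 4 in the brightest 10% and 6 in the dimmest 25%. The fatty acid binding protein gene fabp1b.1 stood at 13.19, 12.55 and 13.54, the vitamin D binding protein gene gc at 13.07, 12.98 and 12.99, and hpdb of tyrosine breakdown at 12.57, 12.38 and 12.43. The level of fabp1b.1 rests on only 3 probes, between positions 1 and 83. The protease inhibitor gene serpinf2b followed at 11.16, 11.47 and 11.54. Cyp7a1, the rate-limiting enzyme of bile acid synthesis, was lower at 7.53, 7.97 and 7.23, and hamp, the iron hormone hepcidin, lower still at 5.92, 6.38 and 5.65. Coagulation factor X, f10, had the largest range of the list at 8.62, 8.56 and 11.41, with control pool 3 alone high, and it kept a range of 3.24 with only the probes near the last one.

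Lipid genes had a median percentile of 76.0, and the liver list 63.9. Of 22 members of lipid and sterol metabolism, 18 were above the median target. The low density lipoprotein receptor gene ldlra stood at 11.96, 11.90 and 11.16, and the adipocyte-type binding protein gene fabp4a at 13.12, 12.96 and 12.67. Pcyt2, of phosphatidylethanolamine synthesis, was at 11.31, 11.49 and 9.38 and srebf2, the master regulator of sterol synthesis, at 8.03, 8.44 and 11.35. Control pool 3 was thus low for pcyt2 and high for srebf2.

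The retina gave 1 very bright gene and a wide spread of others. The cone phosphodiesterase subunit gene pde6hb stood at 14.52 in each pool, although its probes disagreed, with a standard error of 1.15 over probes. By the mean of its probes pde6hb had a range of 0.71. The arrestin genes sagb and saga stood at 11.92, 11.52 and 11.55 and at 9.57, 9.57 and 9.28, and the retinoschisin gene rs1a at 11.16, 10.88 and 10.22. Of the 14 photoreceptor members, 8 were above the median target and 3 in the dimmest 25%, among them nrl, a rod transcription factor, at 5.61, 5.22 and 6.31. The circadian clock list, 5 members expressed in retina and elsewhere, had the largest median range of the 38 lists, 1.38, with 4 members at a range of at least 1. Between control pools 1 and 2 alone its median range was 0.23. Control pool 3 was high for per3 (8.38, 8.15 and 10.34), hlfa (9.36, 9.39 and 11.41) and rorca (8.74, 8.26 and 9.34) and low for rorb (11.14, 10.87 and 9.76), whereas per1b was at 10.12, 10.26 and 10.67. Per1b and per3 encode repressors of the clock, and rorb and rorca encode nuclear receptors that act on it.

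Neuron and synapse genes lay around the middle of the scale. Of 56 members, 33 were above the median target, 6 in the brightest 10% and 7 in the dimmest 25%. Sncb, a synuclein of nerve endings, was the brightest at 13.80 ± 0.21 (SD, n = 3), and the synaptic vesicle genes syn2a and syt5b stood at 11.52, 11.35 and 11.44 and at 11.99, 11.81 and 10.65. Transporters that define transmitter types were in the upper part, with slc6a5 of glycine neurons at 11.11, 11.38 and 10.34, slc32a1 of inhibitory neurons at 10.76, 10.69 and 10.70 and slc17a6a of glutamate neurons at 9.76, 9.76 and 9.73. The vesicular acetylcholine transporter gene slc18a3b was dim at 5.86, 6.42 and 7.88. Among receptors, the dopamine receptor gene drd2a stood at 8.16, 8.72 and 7.77 and the serotonin receptor gene htr5ab at 7.06, 6.84 and 6.46. The largest range was that of cntn1a, an axonal adhesion molecule, at 8.15, 8.86 and 11.02, and 14 members had a range of at least 1.

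Glial and skin lists lay in the upper part of the scale by their medians, at percentiles 68.7 and 68.4. The vascular list, at 62.4, was nearer to the 57.1 of all members. The pigment list lay near the middle, at a median percentile of 55.7 with 5 of 10 members above the median target. Fabp7a of radial glia stood at 12.13, 11.47 and 11.88 and the myelin-associated glycoprotein gene mag at 10.60, 10.60 and 10.45. The level of fabp7a rests on only 3 probes, between positions 1 and 70. In skin the keratin gene krt97 stood at 12.48 ± 0.08 (SD, n = 3) and the protease inhibitor gene spint1a at 11.57, 11.80 and 11.33, and none of the 10 epidermal members had a range of at least 1. Among pigment cell genes pnp4b, of the purine synthesis that iridophores use, stood at 12.61, 12.58 and 12.93, and dct of melanin synthesis at 11.73, 11.81 and 11.42. The melanosome gene pmela was an exception in which control pool 2 was low, at 10.42, 9.12 and 10.57. The endothelial genes cdh5, clec14a and kdr stood at 9.22, 8.90 and 8.40, at 10.14, 10.18 and 8.78 and at 7.24, 7.37 and 7.68, and no endothelial member was in the brightest 10%.

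Blood and skeleton were split within their lists. The embryonic alpha globin gene hbae3 stood at 14.58 in each pool, while its relative hbae4 stood at 8.33, 8.33 and 8.17, the embryonic beta globin gene hbbe3 at 5.79, 5.61 and 5.64 and the adult alpha globin gene hbaa2 at 5.81, 5.99 and 5.99. The erythroid membrane gene ank1a was bright at 12.02, 12.08 and 11.54. Globin genes are close copies, and whether their probes separate them was not tested. In the list of cartilage, bone and matrix, fmoda of tendon and matn3a of cartilage stood at 12.68, 12.66 and 12.66 and at 12.15, 11.42 and 12.37, but the osteoblast genes sp7, runx2b and bglap were at 6.42, 6.36 and 7.62, at 6.03, 6.40 and 6.72 and at 7.30, 7.87 and 6.75. Of the 20 members of that list, 8 were above the median target and 7 in the dimmest 25%.

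Transcription factors and signals covered the whole scale. Among 29 homeobox members the brightest were the Pbx and Meis genes, partners of Hox proteins, with pbx3b at 12.15, 12.39 and 11.94, pbx4 at 11.52, 11.66 and 12.48 and meis2b at 11.71, 11.81 and 11.47. Only 1 homeobox member, vax1 of the optic stalk, had a range of at least 1, at 7.14, 6.88 and 8.71. In the second list of 29 factors, ebf3a and gata3 stood at 12.15, 12.14 and 12.13 and at 11.98, 12.56 and 11.82, and the early neural gene sox19b at 5.96, 6.30 and 7.71. Only 3 probes entered the level of gata3. The median percentile was 55.8 for the homeobox list and 45.6 for the other. Of 42 members of the Wnt, Fgf, Bmp, Notch and Hedgehog list, 25 were above the median target and 13 had a range of at least 1. Fstl1b and sfrp2, which encode secreted proteins that bind signals, stood at 11.57, 11.50 and 11.45 and at 10.55, 10.59 and 9.35. The ligand genes wnt5a and wnt3a stood at 5.66, 5.92 and 7.59 and at 5.23, 5.31 and 7.18, with control pool 3 alone high.

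Cell division, stress and housekeeping lists also had medians above the median target. The cyclin gene ccna2 stood at 11.37, 11.55 and 11.55 and the replication helicase gene mcm5 at 11.19, 11.03 and 10.93, and 1 of the 13 cell cycle members, cdk4 (6.56, 7.03 and 8.22), had a range of at least 1. The stress factor gene ddit3 was bright at 12.19, 12.21 and 11.04, whereas the inflammatory cytokine gene il1b was dim at 6.66, 6.66 and 6.85. The inducible chaperone gene hsp70.3 stood at 10.73 in each pool, the chaperonin subunit cct2 at 13.64, 13.56 and 13.83, and the co-chaperone gene stip1 at 11.34, 11.50 and 11.34. Antioxidant genes included gpx4b, which reduces lipid peroxides, at 12.29, 11.88 and 12.88, prdx6 at 12.19 in each pool, and gstp1.1 at 11.60, 10.57 and 11.53, in which control pool 2 was low. Of 39 proteasome and ubiquitin members 28 were above the median target, with the proteasome lid subunit psmd14 at 13.10, 12.81 and 13.13 and the core subunit psma3 at 12.26 in each pool. The 57 vesicle trafficking and 64 solute carrier members had median percentiles of 57.6 and 59.3, close to that of all members.

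4 lists had their median in the dimmest 25% of all targets. Of 23 olfactory, taste and pheromone receptor members none was above the median target and 21 were in the dimmest 25%, with a median level of 5.95. The pheromone receptor gene ora2 was the exception in spread, at 6.99, 7.37 and 9.22, with control pool 3 alone high. Of 32 leukocyte members 24 were in the dimmest 25% and 1, stat4 (8.73, 8.72 and 8.33), was above the median target. The myeloid factor gene spi1b stood at 8.03, 8.11 and 6.72, the T cell kinase gene lck at 6.37 in each pool for 1 of its targets, and the chemokine receptor gene cxcr3.1, among the 8 dimmest members, at 5.19, 5.25 and 4.70. Egg and gonad genes were also low, with the vitellogenin gene vtg4 at 5.98 in each pool and the egg coat gene zp2.3 at 5.15, 5.17 and 5.13, and the highest of the 6 was zp2.2 at 8.45, 8.44 and 7.90. Of 16 hormone members 9 were in the dimmest 25%, but avp, the vasotocin precursor, stood at 9.77 in each pool and the calcium hormone gene stc1l at 10.02, 9.84 and 10.02. The 8 dimmest members had levels of at most 5.30 and 3 of them belonged to these lists (mhc2dgb, zp2.3 and cxcr3.1). The other 5 were zgc:153219, the protocadherin gene pcdh2g7, zgc:101699, the histone gene hist1h2a2 and, dimmest of all, the kinase gene pimr213 at 4.98, 5.05 and 4.82. These levels bound what the array can show, and a dim target was not taken as unexpressed.

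Counts by organ describe the lists and do not test the label of whole larvae, since the lists were made with these data known. The brightest 10% of all targets held 12 of 22 skeletal muscle members, 16 of 24 lens crystallin members, 3 of 5 pancreatic and 3 of 10 epidermal members. It also held 2 of 14 photoreceptor, 2 of 8 erythrocyte and 1 of 6 intestinal members. For liver (4 of 39), neurons (6 of 56) and cartilage (2 of 20) the share was close to that of all targets, and no heart (0 of 4) or vascular (0 of 10) member was among them. On the low side, none of the 6 egg and gonad members was above the median target.

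The 20 members with the largest range, among those above the dimmest 25%, were mostly high in control pool 3. Control pool 3 was the highest pool in 17 of them and the lowest in 3. Over all 8425 targets with a range of at least 1 it was the highest in 3994 and the lowest in 4143. It was not counted over all targets with ranges as large as those of the 20. Whether the excess of high values is particular to members was therefore not tested. The ranges of the 20 members ran from 2.81 to 4.23. Numb, an inhibitor of Notch signalling, had the largest at 6.43, 7.94 and 10.66. The Wnt co-activator gene bcl9 was at 6.88, 7.22 and 10.66 and the spliceosome-associated gene wbp11 at 7.75, 8.21 and 11.50. The isoleucyl-tRNA synthetase gene iars1 stood at 8.14, 9.15 and 11.43, the deubiquitinase gene usp9 at 8.17, 8.58 and 11.29, and the membrane contact site gene vapa at 8.95, 9.40 and 11.85. The blood stem cell factor gene runx1 was at 6.64, 7.38 and 9.45 and the focal adhesion kinase gene ptk2aa at 8.16, 8.35 and 11.15. The inositol phosphatase gene inppl1a was at 8.17, 8.77 and 11.09 and the ciliary factor gene rfx3 at 6.40, 7.59 and 9.57, and the receptor phosphatase gene ptpro and the kinase gene map3k12 reached 10.52 and 9.29 in control pool 3. For lrrc8db and si:busm1-105l16.2, also among the 20, each level rests on only 2 probes.

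In several of these genes the pools met at the last probe and parted further away. The last probe of wbp11 gave 10.53, 10.90 and 10.93, and its first probe 4.93, 5.81 and 10.46. For srebf2 the last probe gave 8.62, 8.58 and 8.76 and the first 4.61, 4.73 and 8.70. Usp9, with its last probe at position 7502, gave 14.02, 13.80 and 13.83 there and 6.80, 7.25 and 11.20 at its first probe. In other genes the pools differed near the last probe too. Of the 20 members, 11 had at least 3 probes within 600 positions of the last one. Over those probes 9 of the 11 had a range of at least 1, beside 25.5% of all targets measured that way. These probes are among those by which the 20 were chosen, so a large range over them was favoured in advance. Numb kept a range of 2.85, galnt10, an enzyme of O-glycosylation, 2.56 and iars1 2.90. The kinase gene pdk2b, which restrains pyruvate dehydrogenase, went another way at 10.64, 7.54 and 6.91, with control pool 1 alone high. Its probes within 600 positions of the last had means of 11.46, 6.03 and 6.36, and those further away 10.97, 9.19 and 7.62. Cabp2a, a calcium-binding protein gene, was at 9.58, 8.40 and 6.78, with control pool 3 lowest.

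**Figure D5:**
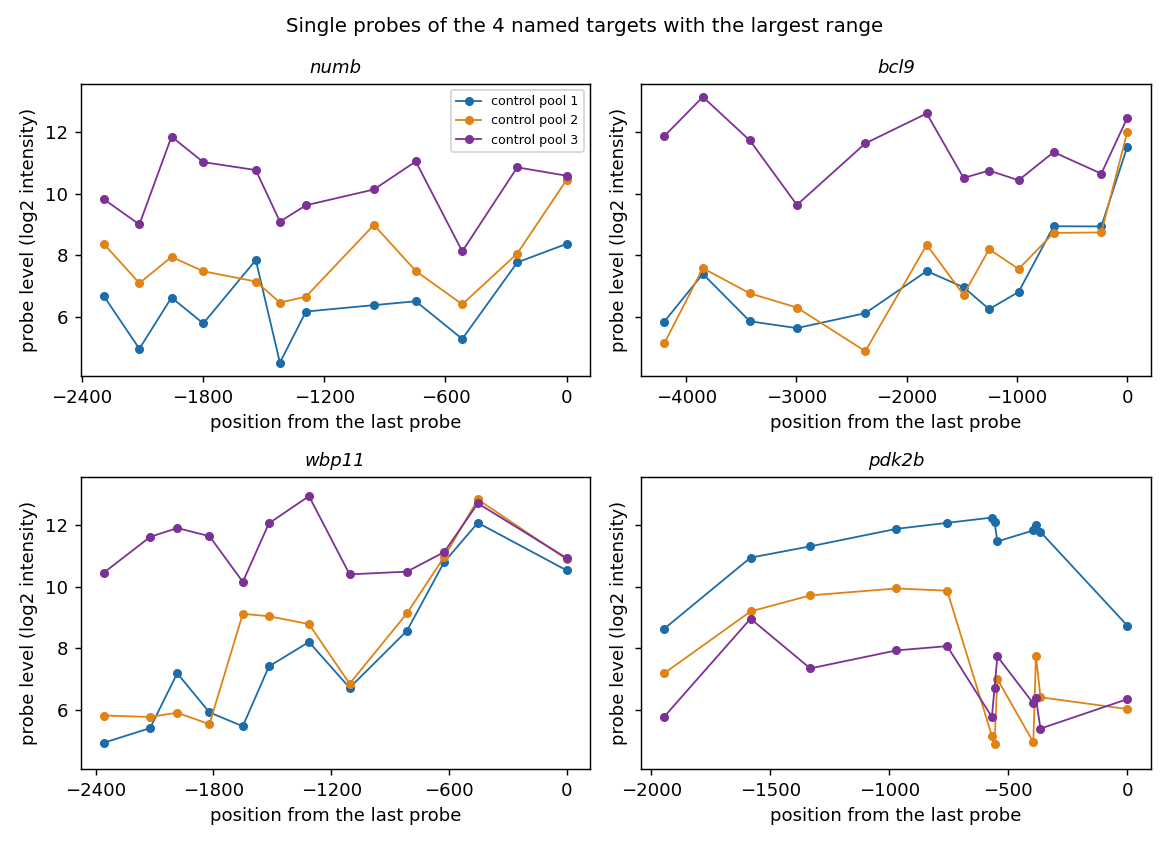
Level of each probe (log2 intensity, vertical axis) of the 4 named targets with the largest range, by position relative to the last probe of the target (horizontal axis, last probe at 0), in control pools 1, 2 and 3. In wbp11 the pools meet near the last probe (10.53, 10.90 and 10.93), in numb control pool 3 is high along nearly the whole target, and in pdk2b control pool 1 is high throughout.

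At the other end, 199 of the 2663 members had the same polished level in every pool, beside 2616 of all 37157 targets. Of the 199 members, 108 were above the median target. By the mean of their probes these 199 members had a median range of 0.24 and a highest of 0.84, so a polished range of 0 does not mean that no probe differed. Besides slc25a5, mdh2, hbae3 and pde6hb they included stt3a, a catalytic subunit of the enzyme that attaches N-glycans, at 13.41, with a range of 0.22 by the mean of its probes. The co-chaperone gene dnaja2a lay at 12.73, with a range of 0.13 by that mean. The peroxiredoxin gene prdx6 lay at 12.19, with a range of 0.04, and the Z-disc gene myoz2a at 11.84, with a range of 0.17. These 3 genes therefore differed little between pools by either summary. The other members named by the rule were plscr3b, septin7a, papss2a, mpzl3, armc1, elmo1 and 1 target of clic5b, whose levels lay between 11.17 and 12.10. Ties at a range of 0 were ordered by level in choosing which of the members to name.

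Where 13 symbols had a pair of targets, the level depended on the target measured. The difference within a pair had a median of 0.84 log2 units and was under 1 in 7 pairs. The targets of gstz1, an enzyme of tyrosine breakdown, differed most, at 12.17, 11.79 and 12.20 for one and 6.21, 6.01 and 6.13 for the other. The chloride channel protein gene clic5b lay at 11.17 in each pool for one target and at 8.34, 8.43 and 8.24 for the other. The caveolin gene cav1 differed least, at 10.04, 10.19 and 9.61 and 10.03, 10.03 and 9.19. In both cav1 targets control pool 3 was the lowest, and in both targets of xkr4 and of ntm control pool 3 was lowest as well, with 11.98, 11.62 and 11.10 and 10.26, 9.90 and 9.43 for xkr4. A pair of plod2 targets, which encode a collagen-modifying enzyme, differed in which pools were low, at 9.22, 9.11 and 8.12 and at 7.79, 6.69 and 6.78. The boundary of the brightest 10% fell among members that cannot be separated, with csrnp1b at 11.15 ± 0.56 and lims1 at 11.16 ± 0.26 just inside and lbh at 11.15 ± 0.33 and bloc1s6 at 11.15 ± 0.10 just outside (mean ± SD, n = 3).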

How the data were processed

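RNA of 6 pools of 50 whole larvae was measured, and the 3 control columns of the 6 value columns were used for every result but 1 alternative, in which probes were polished over all 6 arrays (0 columns belonged to another series). The authors quantile normalised the one-colour signal between arrays, and what they deposited is the intensity of each single probe on a linear scale. RMA is named in the submitters' processing notes with no version, and background subtraction is not given in the sources used here. Names were matched through RefSeq transcript identifiers of the GRCz12tu annotation.

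Probes of a target, told by the identifier without its final P and the number after it, were combined as log2 values by median polish over the 3 control arrays (tolerance 0.01, at most 10 iterations, pseudocount 0) in R 4.3.3, with limma 3.58.1 for the second quantile normalisation. The procedure was tested on simulated data. The number of arrays limits the precision. Pools came from separate clutches.

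The members and lists were chosen with earlier results of these data known. Lists were matched by symbol pattern, and 96 accidental matches were removed by hand from the symbols after values had been seen. The rule for genes to name took the 25 brightest and 8 dimmest members, the 20 largest and 15 smallest ranges, the reference genes, the 3 highest members, the lowest and the most variable one of each list, and symbols with a pair of targets. A selection of those list members is printed, and other list members were chosen after their values were seen. Alternatives were other ways to combine probes, normalisation, filters on dim targets or probe number, and leaving out each pool.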

Additional observations from a re-analysis of the deposited data

How the results depend on the processing

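No paired analysis was possible because the values of 1 group of 3 pools were described, with no comparison between groups and no test. The median SD between pools of 0.22 and the count of 504 members with a range of at least 1 depended on how probes were combined. By the median of the probes they were 0.39 and 925. When each control pool was left out in turn, the SD ran from 0.16 to 0.34 and the count from 44, without replicate 3, to 564, without replicate 2. Each of these fits was made anew on the 2 pools kept, and its SD is that of 2 values. They therefore cannot be set against the 0.22 and 504 of 3 pools. The cause of the difference between 44 and 564 was not tested. Median polish over all 6 arrays, the irradiated pools included, gave 0.33 and 679. The other alternatives on all 2663 members gave a median SD between 0.22 and 0.32 and counts between 504 and 662. Fewer members entered with only targets of 12 probes (442 of 2292), without the dimmest 25% of targets (455 of 2260) and with probes within 600 positions of the last one (544 of 2217, chosen after seeing the data), so these counts cannot be set against 504. The number among the brightest 10% of all targets ran from 194, when only targets with 12 probes were kept, to 288, by the mean of probes. Leaving out the dimmest 25% of all targets redefines every percentile, and 34 of 38 list medians moved with it by more than the spread between replicates. Over all alternatives 184 list medians of percentile and 153 list medians of range moved by more than that spread, and 272 and 303 did not. Dim targets near the floor of the array and the 15 members with values over 60000 may have compressed ranges, which was not tested.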

Other observations

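Single probes departed within targets whose polished levels were close between pools. The search was not run over all targets, so its counts have no share to be read against. Among 1056 members with a range under 0.3 and 12345 probes, 27 probes lay at least 3 log2 units below both other pools in 1 pool and 52 lay at least 3 above them. These probes belonged to 72 members. Control pool 3 held 32 of the 52 high probes and control pool 2 held 16 of the 27 low ones. The taste receptor gene tas2r200.1 had 3 such probes and a range of 0.96 by the mean of its probes. In arl3a, a small GTPase gene of cilia, 1 probe gave 5.42, 11.38 and 5.71 in control pools 1, 2 and 3, while the polished levels of the gene were 6.62, 6.70 and 6.70. In cops6, a subunit gene of the signalosome, 1 probe gave 14.65, 10.74 and 10.31. These values were found by search after the data were seen.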
